A study of Mus musculus with 27 samples.

Results

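A set of 10 genes that carry the prolactin and growth hormone signals in liver was followed over a reproductive cycle. The genes were listed by name, and the set holds the receptors Prlr and Ghr, the kinase Jak2, the transcription factors Stat5a and Stat5b, the feedback genes Socs2 and Cish, the secreted products Igf1 and Igfals, and the transcriptional repressor Bcl6. Ensembl identifiers were matched to symbols, and all 10 were found among the 51826 genes measured and passed the filter on low counts, which left 16428 genes. RNA of the whole liver was sequenced in bulk in 27 Balb/C mice, all of the same unmodified genotype in the labels, with 1 library per animal. Breeding took place at an age of 10 to 12 weeks, litters were evened in size, and dams of the weaned groups had nursed for 10 to 14 days when the pups were removed. The groups were never-pregnant, age-matched controls (nulliparous, called NUL, with 4 animals) and dams at day 10 of lactation (LAC, with 3). After weaning, livers were taken on day 2 (ID2, 3 animals), day 4 (ID4, 4), day 6 (ID6, 6) and day 8 (ID8, 3), and at a last stage 4 weeks on (REG, 4). No pregnant animals were analysed here, and neither the hour of collection nor the feeding state is given in the sources used here.

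Prolactin from the pituitary, and placental lactogens during pregnancy, act through the prolactin receptor, and growth hormone acts through its own receptor. Both receptors lack enzyme activity of their own and rely on the kinase JAK2, which phosphorylates STAT5A and STAT5B so that they enter the nucleus and bind DNA at elements with the letters TTC and GAA around a short spacer. Among the best known liver targets are the insulin-like growth factor gene Igf1, its serum partner Igfals, and the inhibitors Socs2 and Cish that damp the signal. Bcl6 is a repressor that STAT5 is known to hold down and that competes for similar sites.

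Estimated counts summed to between 41120650 and 75664540 per library. Summed levels of the hepatocyte markers (Alb, Ttr, Apoa1, Cyp2e1, Cps1) were 178776 to 222313 CPM (counts scaled to the TMM-adjusted library total) in LAC, above NUL (92451 to 121072) and ID2 (134361 to 147181) without overlap, and no marker of that list was at 0 in all libraries of a stage. Its members did not move together: in LAC against NUL, Alb was higher (log2 fold change 0.98) and Cyp2e1 lower (−1.49), and from LAC to ID2 Alb fell by 0.56 and Cyp2e1 rose by 1.12, while the other 3 were not called in either. Summed erythroid markers were also higher in LAC than in NUL (768 to 1016 against 335 to 712), with 0 of 5 called. Of 9 marker lists for other cells, 6 had lower summed levels in LAC than in NUL with no overlap between animals. These were bile duct (21.4 to 27.9 against 33.9 to 47.2 CPM), Kupffer cell and macrophage (198 to 283 against 301 to 385), stellate cell (215.7 to 227.3 against 281 to 321), endothelial (181 to 208 against 222 to 256), B cell (1.64 to 2.64 against 3.86 to 6.33) and T cell markers (0.554 to 1.14 against 1.495 to 2.45). Of the 5 markers in each of these lists, in the same order, 2, 4, 3, 0, 2 and 1 were called lower, beside 6% of all genes. From LAC to ID2, 4 of the 9 lists were higher with no overlap. These were endothelial (245 to 255 in ID2, with 3 of 5 markers called higher), bile duct (29.8 to 40.6, 1 of 5), stellate cell (238.6 to 271.0, 0 of 5) and B cell markers (2.69 to 5.39, 0 of 5). The Kupffer cell and macrophage list overlapped, with 4 of 5 markers called higher. The Kupffer cell and macrophage list was higher in ID4 (522 to 582) and ID6 (406 to 673) than in NUL. In bulk tissue, fewer cells of a type and less RNA per cell cannot be told apart, and the part of these shifts in the results on the 10 genes was not tested. Pancreas markers reached 1473 CPM in animal ID2_31 and 116 in 1 ID4 animal, and were at most 28.3 in every animal of the other stages. Of the hormone genes themselves, Prl and the placental lactogen gene Prl3d1 had 0 counts in all 27 livers, and Gh had at most 2 counts in any library. The 4 genes found for ligands of the 2 receptors, these included, summed to at most 0.0575 CPM in any animal. None of them passed the filter on low counts.

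Of the 10 genes, 6 differed among the 7 stages in a joint test (edgeR quasi-likelihood test, Benjamini-Hochberg adjusted p under 0.05, the rule for a call throughout), against 27% of all genes tested. Since the list was drawn up with earlier results of these data known, its shares are descriptions. They were Prlr (adjusted p = 0.00199), Ghr (0.00115), Stat5a (0.00121), Stat5b (0.000297), Igf1 (0.0139) and Igfals (0.00257). Jak2 (0.932), Socs2 (0.441), Cish (0.222) and Bcl6 (0.243) did not pass. From NUL to LAC, 2 genes fell and none rose, against 11.2% of all genes called in this comparison and 6% called lower. From LAC to ID2, 5 genes rose and none fell, where 16.1% of all genes were called and 8.48% were higher. The median log2 fold change of the 10 genes was −0.18 from NUL to LAC and 0.34 from LAC to ID2, beside −0.01 and 0.02 over all genes. Both steps use the same LAC animals.

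**Figure D1:**
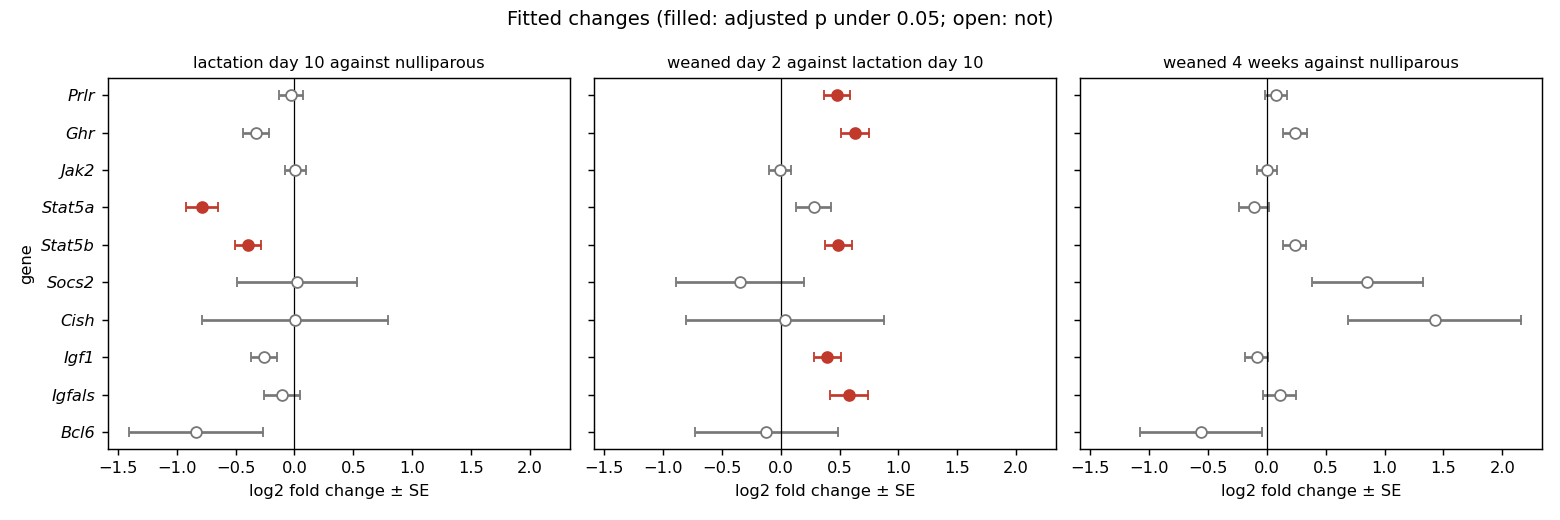
Fitted log2 fold change ± SE of the 10 genes (vertical axis) at lactation, at ID2 relative to lactation and at REG relative to NUL, with filled points for an adjusted p under 0.05. The filled points are Stat5a and Stat5b, both to the left, in the first panel, and Prlr, Ghr, Stat5b, Igf1 and Igfals, all to the right, in the second. No point is filled in the third, where Cish, Bcl6 and Socs2 have the widest bars.

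On a scale that allows for gene length (TPM, the authors' unit), the order of mean level over the 27 livers was Igf1 (672), Ghr (262), Prlr (175), Igfals (135), Socs2 (34.5), Stat5b (19.0), Cish (10.1), Stat5a (7.11), Jak2 (4.67) and Bcl6 (3.06). Transcripts of the growth factor and of both receptors were thus more abundant than those of the kinase and the transcription factors. Spread between animals of the same stage differed widely among the 10 genes. The within-stage SD of log2 CPM was 0.99 for Cish, 0.74 for Bcl6 and 0.65 for Socs2, larger than for 99.4%, 98.8% and 98.4% of 12103 genes with a mean of at least 1 CPM. It was 0.22 for Igfals and 0.10 for Jak2, with a median of 0.17 over those genes. The highest library exceeded the lowest 15.9-fold for Cish, 7.68-fold for Bcl6 and 6.31-fold for Socs2, and 1.36-fold for Jak2.

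Prlr (ENSMUSG00000005268) lies on chromosome 15 from 10177238 to 10349180, plus strand, in GRCm38 (GENCODE M21), and makes long and short receptor forms. Its level was 362, 301, 397 and 341 CPM in the NUL animals and 333, 364 and 331 in LAC. In ID2 it was 453, 443 and 539, and in ID4 454, 462, 453 and 438. All 7 animals of ID2 and ID4 were above all NUL and LAC animals. The lowest, median and highest ID6 animals had 329, 392.5 and 442 CPM. The ID8 animals had 357, 367 and 385, and the REG animals 351, 365, 371 and 387, so that both stages overlapped NUL.

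Prlr did not differ between LAC and NUL by the edgeR test (343 ± 18.3 CPM, SD, n = 3, against 350 ± 40.1, n = 4; log2 fold change −0.03 ± 0.10 SE, adjusted p = 0.899). It rose from LAC to ID2 (478 ± 53.0 CPM, n = 3) by 0.48 ± 0.11 on the log2 scale (adjusted p = 0.00335). Against NUL it was higher by 0.45 ± 0.10 in ID2 (adjusted p = 0.0101), where 2 of the 10 genes were called among 3.24% of all genes, and by 0.37 ± 0.09 in ID4 (452 ± 9.84 CPM, n = 4, adjusted p = 0.0212), where 3 of 10 were called, all higher, among 4.25% of all genes (2.64% higher). In order of mean level the stages ran ID2, ID4, ID6, ID8, REG, NUL and LAC, and each stage overlapped its neighbours in that order. The ID2 call against NUL was lost without animal ID2_39 (adjusted p = 0.134), and the ID4 call without ID4_13, ID4_15, NUL_221 or NUL_227 (largest adjusted p = 0.0865). The clock genes differed with it: a score of day-arm minus night-arm clock genes (log2 scale) was 0.86 to 2.87 in ID2, above NUL (−1.23 to 0.03) and LAC (−0.69 to 0.75), and with that score in the fit the log2 fold change of Prlr was 0.31 against NUL (adjusted p = 0.314) and 0.36 against LAC (0.0791). Libraries with a title number under 200 occur only in ID2 (2 of 3), ID4 (2 of 4) and ID8 (3 of 3). With a term for that split, Prlr was higher than in NUL by 0.40 in ID2 (0.132) and by 0.33 in ID4 (0.0998). With only the 2 groups in the fit, the ID2 difference from NUL was 0.45 (0.0535).

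Ghr (ENSMUSG00000055737; chromosome 15, 3317760 to 3583492, minus strand) encodes the growth hormone receptor, whose shed outer part also circulates as a binding protein. Its level was 334, 307, 396 and 358 CPM in NUL and 291, 283 and 259 in LAC. The ID2 animals had 471, 425 and 394. Every LAC animal was below every other animal of the study, the lowest of which had 307. In ID4 the values were 382, 453, 430 and 358, in ID8 425, 475 and 382, and in REG 405, 383, 420 and 440. The ID6 animals ran from 350 through a median of 398 to 477. After weaning, all of these stages overlapped one another.

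Ghr rose from LAC (278 ± 16.6 CPM, n = 3) to ID2 (430 ± 38.7, n = 3) by 0.63 ± 0.12 on the log2 scale (edgeR adjusted p = 0.000740), and it passed in each of 6 fits that left out 1 animal of the pair of stages and in 13 of 13 other settings. Its difference between LAC and NUL (349 ± 37.6 CPM, n = 4) was −0.33 ± 0.11 and missed the threshold (adjusted p = 0.0552) although the animals did not overlap. It passed with DESeq2 (adjusted p = 0.0425) and in 3 of 13 other settings in all. The smallest adjusted p of these was 0.00951, from limma on log2(TPM + 0.1). With 1 animal left out it passed in 1 of 7 edgeR fits, without NUL_221 (adjusted p = 0.0422), and was at 0.195 without LAC_240. At ID6, ID8 and REG its fitted differences from NUL were 0.24, 0.29 and 0.24, with adjusted p of 0.258, 0.251 and 0.603.

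**Figure D2:**
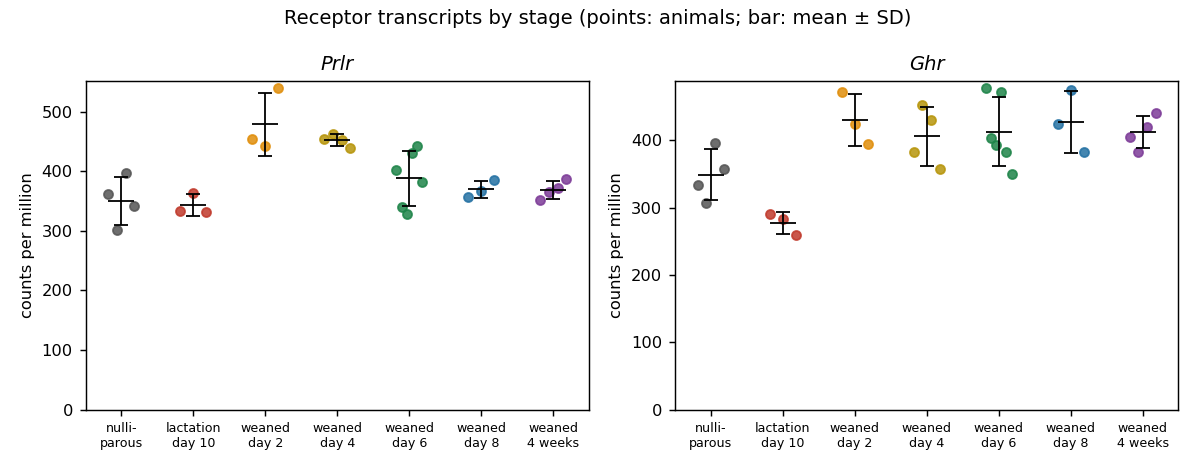
CPM of Prlr (left) and Ghr (right) in each animal, by stage, with the mean ± SD. All LAC animals lie at the bottom of the Ghr panel, between 259 and 291, while in the Prlr panel the ID2 and ID4 animals lie at 438 and above and the LAC animals among the NUL animals.

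The ratio of Prlr to Ghr TPM compares the receptors per length. It was 0.602 to 0.668 in NUL (0.634 ± 0.0354, SD, n = 4) and 0.813 to 0.904 in LAC (0.845 ± 0.0517, n = 3), with no overlap. The log2 difference was 0.41 (exact two-sided permutation p = 0.0571, the smallest that 35 arrangements can give, and 0.114 adjusted over the 2 ratio tests). In ID2 the ratio ran from 0.664 to 0.986, wider than in LAC and overlapping it (log2 difference −0.11, exact permutation p = 0.5, smallest possible 0.1). It was 0.682 to 0.800 in ID4, 0.545 to 0.732 in ID6, 0.555 to 0.664 in ID8 and 0.549 to 0.640 in REG.

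The authors' tables also give the mean length of a gene's transcripts in each library, weighted by their estimated abundance, which moves when the mix of isoforms moves. For Prlr, whose 12 annotated transcripts differ widely in length, it was 3019 to 3234 bases in NUL, 2774 to 3044 in LAC, 2795 to 2888 in ID2 and 2819 to 2860 in ID8. It was 2837 to 3014 in ID4. The ID2, ID4 and ID8 animals did not overlap NUL. The log2 difference of LAC from NUL was −0.13 ± 0.04 (limma, adjusted p = 0.484 over 12190 genes), and the joint test gave 0.586. None of the 9 genes whose length varied was called by limma in either test (0.0246% of genes were called in LAC against NUL and 0.0656% jointly). Igfals has 1 length in all libraries.

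Jak2 (ENSMUSG00000024789; chromosome 19, 29251828 to 29313080, plus strand), the kinase bound to both receptors, was the steadiest of the 10. Its level lay between 15.9 and 21.5 CPM in all 27 animals, both extremes being ID2 animals, and its stage means lay between 18.2 and 19.4. The largest fitted log2 difference among the 11 comparisons was 0.0913, in ID8 against NUL.

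Stat5a (ENSMUSG00000004043) and Stat5b (ENSMUSG00000020919) are neighbours on chromosome 11, at 100859351 to 100885169 on the plus strand and 100780731 to 100850724 on the minus strand. Their products are close relatives, and STAT5B is the form best known for carrying the growth hormone signal in liver. Estimated counts of both were fractional in all 27 libraries, so some of their reads were shared with other genes or with each other.

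Stat5a was 21.2, 23.8, 17.4 and 19.4 CPM in NUL and 12.5, 11.6 and 11.5 in LAC. Every LAC animal was below every animal of all other stages, the lowest of which was ID2_39 at 12.7. Stat5a fell from NUL (20.5 ± 2.73 CPM, n = 4) to LAC (11.9 ± 0.535, n = 3) by 0.79 ± 0.14 on the log2 scale (edgeR adjusted p = 0.000419). It passed in 7 of 7 fits with 1 animal left out and in 13 of 13 other settings, with a largest adjusted p of 0.00837. The ID2 animals had 15.5, 15.002 and 12.7 CPM, above LAC and below NUL without overlap. Against NUL the ID2 difference was −0.51 ± 0.14 (adjusted p = 0.0362), a call that was lost in 6 of 7 fits with 1 animal left out, the exception being NUL_226 (largest adjusted p = 0.2176, without ID2_39). It held in 7 of 13 other settings, and with the clock score in the fit the difference was −0.29 (0.535). Against LAC it was 0.28 ± 0.15 (adjusted p = 0.205).

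Later values of Stat5a lay between. The ID4 animals had 17.8, 18.0, 14.8 and 17.5 CPM, the ID8 animals 16.2, 14.2 and 15.5, and the REG animals 15.4, 19.9, 23.1 and 17.5. The ID6 animals ran from 14.2 to 21.3 with a median of 17.7. The ID8 animals were all below the NUL animals (log2 fold change −0.42 ± 0.14, adjusted p = 0.174), whereas ID4, ID6 and REG overlapped NUL.

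Stat5b was 67.1, 64.8, 75.9 and 64.7 CPM in NUL and 56.4, 43.6 and 55.3 in LAC, with no overlap. It fell from NUL to LAC by 0.40 ± 0.11 on the log2 scale (edgeR adjusted p = 0.0169), a call lost without LAC_213 (adjusted p = 0.155) or NUL_226 (0.0652). In ID2 it was 77.6, 78.7 and 61.9, in each animal above LAC, and the rise from LAC was 0.49 ± 0.12 (adjusted p = 0.00495, and 0.0520 without LAC_213). It was highest in ID4 at 84.4, 95.2, 87.6 and 82.5 CPM, every animal above NUL and above ID2. There it exceeded NUL by 0.36 ± 0.10 (adjusted p = 0.0363), a call lost in 6 of 8 fits with 1 animal left out, those without NUL_226 and ID4_215 being the exceptions, and on both log2(TPM + pseudocount) scales (largest adjusted p = 0.230), as well as with the effective length offset (0.0755) and the term for title number (0.0980). The later stages were 69.6 to 92.5 CPM in ID6 (median 74.9), 65.9 to 74.2 in ID8 and 71.4 to 93.5 in REG, all overlapping NUL.

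**Figure D3:**
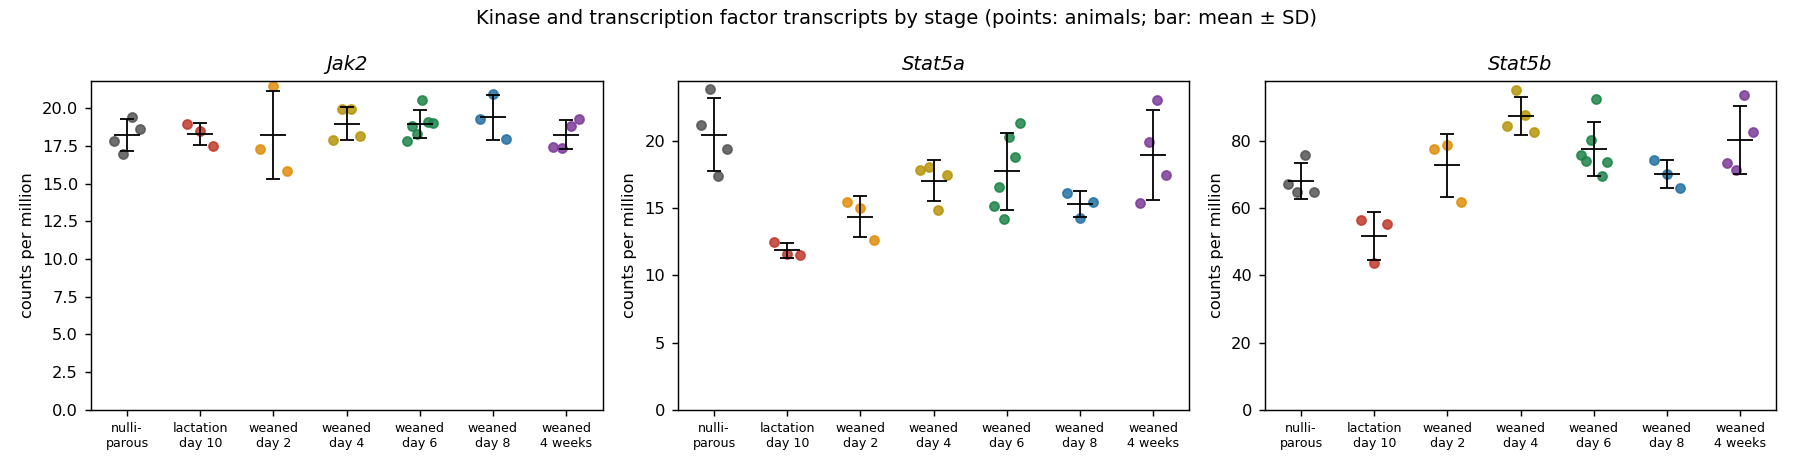
CPM of Jak2, Stat5a and Stat5b in each animal, by stage, with the mean ± SD. In the Stat5a and Stat5b panels the LAC animals are the lowest, at 11.5 to 12.5 and at 43.6 to 56.4, and in the Jak2 panel all stages lie at one level.

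Cish (ENSMUSG00000032578; chromosome 9, 107296026 to 107302784, plus strand) and Bcl6 (ENSMUSG00000022508; chromosome 16, 23965052 to 23988852, minus strand) are shown with promoter sequence because, of the 9 genes with a promoter window, they had the largest spread between animals and more than 1 STAT5-type element in a window. Windows from 250 bases before to 50 after each RefSeq start site (GRCm38.p6) were searched for TTCNNNGAA, which reads the same on both strands. Windows were found by symbol for 9 of the 10 genes, all but Socs2, 17 windows in all, and 6 windows of Prlr, Cish, Igfals and Bcl6 held the motif. Of all 32851 windows, 8.30% held it at least once, 0.457% at least 2 times and 0.0335% at least 3 times. A match is a description of the letters and not a binding site. The stretches below run from 250 bases before the start site to 30 after it, with matches in capitals. The Cish stretch is chr9:107296409-107296688 (plus strand) and the Bcl6 stretch chr16:23981254-23981533 (minus strand).
Cish: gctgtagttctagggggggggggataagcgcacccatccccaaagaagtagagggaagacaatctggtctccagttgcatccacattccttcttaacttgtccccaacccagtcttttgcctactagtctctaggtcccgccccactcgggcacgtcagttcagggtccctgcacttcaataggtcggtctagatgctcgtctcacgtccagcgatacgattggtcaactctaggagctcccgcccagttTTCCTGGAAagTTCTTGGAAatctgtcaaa
Bcl6: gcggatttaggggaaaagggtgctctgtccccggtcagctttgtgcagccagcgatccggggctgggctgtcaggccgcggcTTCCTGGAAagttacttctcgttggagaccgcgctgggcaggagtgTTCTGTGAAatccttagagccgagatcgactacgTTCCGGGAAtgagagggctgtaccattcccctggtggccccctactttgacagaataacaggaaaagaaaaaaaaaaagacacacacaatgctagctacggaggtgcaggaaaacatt
In Cish the 2 matches follow each other, with first bases at positions 1 and 12 counted from the start site. In Bcl6 the 3 matches begin 168, 122 and 88 bases before a start site that lies inside the annotated gene, and the other Bcl6 window, at the start of the annotated gene, held 1 match.

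Cish encodes an SH2 protein of the SOCS family that docks on activated receptors and is itself induced by STAT5. Its level was 7.91, 13.6, 52.9 and 4.32 CPM in NUL, so that a single animal, NUL_226, had several times the level of the other 3. The LAC animals had 8.69, 13.2 and 37.3 CPM and the ID2 animals 27.8, 19.0 and 13.8. In ID4 the values were 6.48, 21.2, 9.07 and 11.3. One high animal among low ones was also seen in ID6, with a lowest of 5.69, a median of 8.88 and a highest of 47.9, and in ID8, with 34.4, 15.02 and 14.2. In REG all 4 animals were high, at 31.7, 45.6, 65.1 and 68.7 CPM.

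The mean of Cish in REG was 52.8 ± 17.3 CPM (n = 4), against 19.7 ± 22.5 in NUL (n = 4). The log2 fold change was 1.42 ± 0.74 (edgeR adjusted p = 0.744), and the groups overlapped through NUL_226. Without NUL_226 it was 2.62 and still missed the threshold (adjusted p = 0.355). Against ID8 it was 1.32 ± 0.81 (adjusted p = 0.668). None of the 10 genes was called in REG against NUL, where 0.0852% of all genes were, nor in REG against ID8, where 0.0487% were. At an unadjusted p under 0.05 there were 2 in the first (Ghr and Stat5b) and 1 in the second (Stat5a), and DESeq2 called 0 in both. The 2 shares of all genes are for adjusted p and cannot be set beside these unadjusted counts. Without NUL_226 the differences of LAC, ID2, ID4, ID6 and ID8 from NUL were 1.196, 1.23, 0.48, 0.85 and 1.29, against 0.00, 0.04, −0.71, −0.35 and 0.10 with it, and none passed. Other single animals turned some of these the opposite way: LAC against NUL was −0.85 without LAC_240, and ID8 against NUL was −0.43 without ID8_101b. Without ID6_216, ID6 differed from NUL by −1.13 and from ID4 by −0.42, and ID8 from ID6 by 1.23 (−0.35, 0.37 and 0.45 with it), and none passed. The joint test of Cish passed only without ID6_216 among the 27 fits that each left out 1 animal (adjusted p = 0.0445).

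Socs2 (ENSMUSG00000020027; chromosome 10, 95385362 to 95417180, minus strand) encodes the SOCS protein whose loss in mice gives excess growth through growth hormone. It was 18.5, 16.5, 100.1 and 29.0 CPM in NUL, again with NUL_226 far above the other 3. The LAC animals had 28.4, 55.6 and 41.1, the ID2 animals 35.3, 28.7 and 34.6, and the ID4 animals 70.0, 22.2, 36.2 and 40.6. In ID6 it ran from 23.4 to 66.7 with a median of 40.8, and in ID8 it was 42.9, 27.8 and 38.2. The REG animals had 54.3, 54.0, 84.1 and 104 CPM, above all ID8 animals and above 3 of the 4 NUL animals.

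REG averaged 74.2 ± 24.6 CPM of Socs2 (n = 4), against 41.1 ± 39.8 in NUL (n = 4) and 36.3 ± 7.70 in ID8 (n = 3). The log2 fold change was 0.85 ± 0.47 against NUL (edgeR adjusted p = 0.797) and 1.03 ± 0.52 against ID8 (0.584). Without NUL_226 the change against NUL was 1.80 (adjusted p = 0.155), and the joint test of Socs2 then passed (adjusted p = 0.0298). Between NUL and LAC the difference of Socs2 was 0.02 ± 0.51, and 0.97 without NUL_226 (adjusted p = 0.166). Without that animal the differences of ID2, ID4, ID6 and ID8 from NUL were 0.62, 0.98, 0.99 and 0.76, against −0.32, 0.04, 0.05 and −0.18 with it, and none passed. From LAC to ID2 the difference was −0.34 ± 0.55.

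Over the 27 livers, Cish and Socs2 had a Pearson r of 0.559 and a Spearman rho of 0.444 on log2 CPM, and an r of 0.438 and rho of 0.248 after the stage means were removed. Animals of a stage share that stage and all share the scaling, so these are descriptions. NUL_226 was the highest NUL animal for both genes, and LAC_240 was the highest LAC animal for Cish but not for Socs2.

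Bcl6 was 18.0, 4.94, 5.57 and 13.1 CPM in NUL and 9.19, 2.99 and 5.30 in LAC. The ID2 animals had 6.59, 3.59 and 5.93 and the ID4 animals 3.65, 3.57, 5.21 and 7.88. In ID6 the range was 7.45 to 16.5 with a median of 11.4, in ID8 the values were 6.96, 23.0 and 4.03, and in REG 3.14, 6.62, 10.3 and 8.22. No pair of stages compared was free of overlap. Bcl6 was on average higher in ID6 (11.3 ± 3.45 CPM, n = 6) than in ID4 (5.07 ± 2.01, n = 4), by 1.16 ± 0.49 on the log2 scale (edgeR adjusted p = 0.156), and lower in ID4 than in NUL by 1.04 ± 0.52 (0.297). Neither passed in the fit of all stages. The first passed with only the 2 groups in the fit (adjusted p = 0.0385), and the second was −0.63 without NUL_220.

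**Figure D4:**
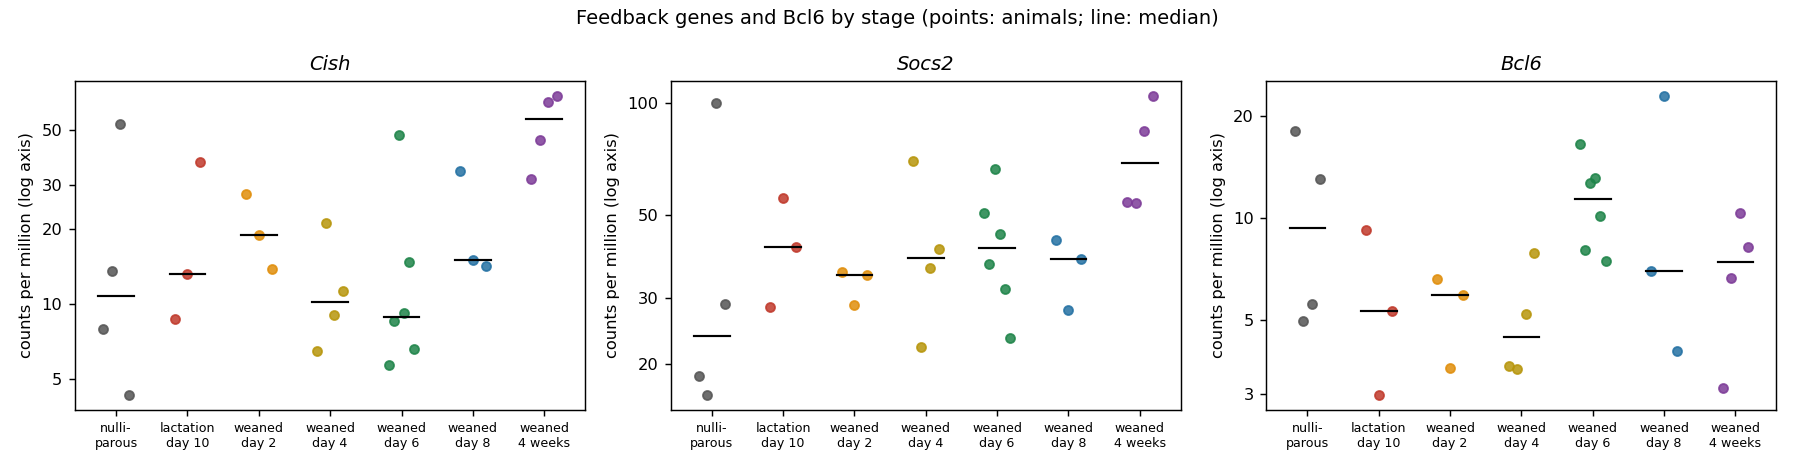
CPM (log axis) of Cish, Socs2 and Bcl6 in each animal, by stage, with the median as a line. Single high animals stand apart in NUL for Cish and Socs2 (52.9 and 100.1) and in ID6 for Cish (47.9), and the 4 REG animals of Cish lie between 31.7 and 68.7.

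Igf1 (ENSMUSG00000020053; chromosome 10, 87858265 to 87937042, plus strand) encodes the growth factor that liver releases under growth hormone. Its level was 513, 611, 727 and 598 CPM in NUL and 543, 511 and 480 in LAC, which overlapped. The ID2 animals had 687, 658 and 673, all above LAC. The ID4 animals had 734, 718, 608 and 706. In ID6 it ran from 475 through a median of 548 to 664, and it was 543, 533 and 607 in ID8 and 563, 548, 583 and 612 in REG.

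Igf1 rose from LAC (511 ± 31.8 CPM, n = 3) to ID2 (673 ± 14.4, n = 3) by 0.40 ± 0.11 on the log2 scale (edgeR adjusted p = 0.0185), and fell from ID4 (692 ± 56.9, n = 4) to ID6 (552 ± 65.3, n = 6) by 0.33 ± 0.09 (0.0229). In the latter step 2 of the 10 genes were called, both lower, among 8.53% of all genes (4.64% lower). With an effective length offset, which allows for transcript length, the rise from LAC to ID2 was 0.17 (adjusted p = 0.394) and the joint test gave 0.115. The fall from ID4 to ID6 was about as large with that offset (−0.30, adjusted p = 0.0518), and on log2(TPM + 1) it was −0.18 (limma, 0.130). With the term for title number, the values were 0.35 (0.111) for the rise and −0.29 (0.119) for the fall. The rise was 0.42 with the clock score in the fit (0.0600) and 0.19 on log2(TPM + 1) (limma, 0.219), and the fall was −0.32 with only the 2 groups in the fit (0.0593). The rise was also lost without ID2_224, LAC_213 or LAC_240, and the fall without ID4_13, ID4_15, ID4_215, ID6_209 or ID6_232 (largest adjusted p = 0.0724 and 0.0851). The mean length of Igf1 transcripts was 1240.5, 1181 and 1232 bases in LAC and 1394, 1344 and 1453 in ID2, with no overlap (limma, log2 difference 0.20 ± 0.07, adjusted p = 0.572), so that its TPM, 584 to 617 in LAC and 649 to 748 in ID2, differed less than its CPM.

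Igfals (ENSMUSG00000046070; chromosome 17, 24865997 to 24882010, plus strand) encodes the acid-labile subunit that holds IGF1 in a long-lived serum complex. It was 175, 163, 229 and 199 CPM in NUL and 168, 172 and 194 in LAC. The ID2 animals had 282, 250 and 266 and were all above NUL and LAC. In ID4 the values were 361, 218.4, 263 and 248, all above every ID6 animal (145 to 202, median 184). ID8 had 185, 169 and 214.3 and REG 266, 194, 161 and 204.

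Igfals rose from LAC (178 ± 14.0 CPM, n = 3) to ID2 (266 ± 15.9, n = 3) by 0.58 ± 0.16 on the log2 scale (edgeR adjusted p = 0.0167), a call lost without ID2_224, LAC_200 or LAC_213 and with the clock score (0.44, adjusted p = 0.160) or title number (0.54, 0.0850) in the fit. From ID4 (273 ± 61.6 CPM, n = 4) to ID6 (180 ± 20.1, n = 6) it fell by 0.60 ± 0.13 (adjusted p = 0.00450). That fall passed in 10 of 10 fits with 1 animal left out and in 13 of 13 other settings, with a largest adjusted p of 0.0414 without ID4_13. Against NUL it was higher in ID4 by 0.51 ± 0.14 (0.0376), a call lost without ID4_13 (0.187), ID4_211, NUL_220, NUL_221 or NUL_227. That call held in 5 of 13 other settings and was lost, among others, with no filter on low counts (0.50, adjusted p = 0.0587), the clock score (0.47, 0.0590) and title number (0.48, 0.131), with differences about as large. In ID2 the difference from NUL was 0.47 ± 0.15 (0.0846, and 0.0440 with DESeq2). Erythroid markers also differed between ID4 (407 to 1027 CPM) and ID6 (53.1 to 264), and the clock score lay between −0.25 and 0.92 in ID4 and between −1.35 and −0.53 in ID6. Their part in the fall was not tested beyond the fit with the clock score, where Igfals passed.

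**Figure D5:**
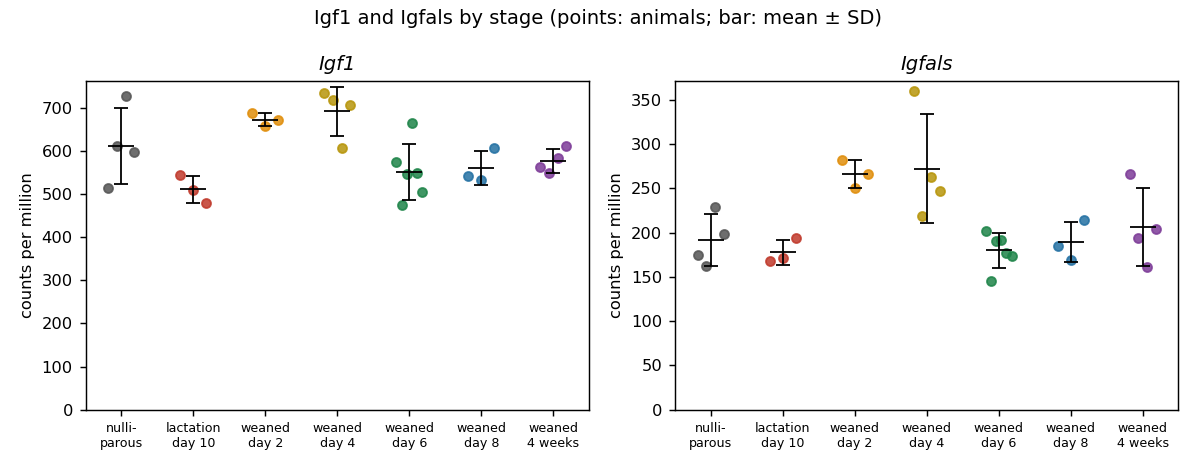
CPM of Igf1 (left) and Igfals (right) in each animal, by stage, with the mean ± SD. The ID2 and ID4 animals have the highest means in both panels, and the Igfals values of ID6 (145 to 202) lie below all those of ID4 (218.4 to 361).

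Igf1 and Igfals had a Pearson r of 0.717 and a Spearman rho of 0.704 over the 27 livers. Prlr had 0.662 and 0.696 with Igf1, and 0.657 and 0.653 with Igfals. After the stage means were removed, r was 0.396, 0.425 and 0.236 for these 3 pairs. Ghr was most like Stat5b among the other 9 genes (0.751 and 0.637), and their r within stages was 0.540. These values are descriptions over libraries that share stages and scaling.

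None of the 10 genes was called in ID4 against ID2 (1.49% of all genes were), ID6 against NUL (1.08%), ID8 against NUL (0.499%) or ID8 against ID6 (4.12%). DESeq2 also called 0 in these 4 comparisons. At an unadjusted p under 0.05 there were 1 (Stat5b), 2 (Stat5b and Ghr), 2 (Stat5a and Ghr) and 0. The percentages above are for adjusted p and cannot be set beside these counts, for which no share of all genes is given. All comparisons with NUL share its 4 animals.

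Genes around the pathway were taken from lists, whose counts stand beside the shares of all genes called, 27% jointly, 11.2% in LAC against NUL and 16.1% from LAC to ID2. Of 8 other Janus kinases and STATs, 4 were called jointly (Stat3, Stat6, Jak3 and Tyk2). Jak3, a kinase of immune cell receptors, fell from 12.1 ± 3.72 CPM in NUL (n = 4) to 6.78 ± 1.16 in LAC (n = 3; log2 fold change −0.83 ± 0.20, edgeR adjusted p = 0.00837) and rose to 18.0 ± 6.13 in ID2 (n = 3; 1.40 ± 0.22, 0.000119). Stat3, the main carrier of interleukin 6 signals in liver, rose from 91.4 ± 13.6 CPM in LAC to 162 ± 39.7 in ID2 (0.82 ± 0.14, 0.000267). Stat6, which carries interleukin 4 signals, moved the other way, higher in LAC than in NUL by 0.48 ± 0.08 (0.000232) and lower in ID2 than in LAC by 0.33 ± 0.09 (0.00893). Stat3 and Stat5a overlap by 72 bases on opposite strands, and the use of strand in counting is not given in the sources used here.

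Of 19 other SOCS genes, phosphatases, PIAS genes and adaptors, 2 were called jointly (Ptpn6 and Grb10), a smaller share than the 27% of all genes. From LAC to ID2, where 16.1% of all genes were called, 2 rose and 0 fell: Pias3, which binds STAT3, by 0.55 ± 0.17 (edgeR adjusted p = 0.0223) and Ptpn6, a phosphatase best known in blood cells, by 0.41 ± 0.11 (0.01001). Ptpn11, the phosphatase SHP2 that docks on these receptors, was the member called in LAC against NUL (0.29 ± 0.10, 0.0481).

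Of 13 genes of the IGF axis beside Igf1 and Igfals, 5 were called jointly. In LAC, Igf2, a fetal growth factor, was at 5.46 ± 3.76 CPM (n = 3), against 0.674 ± 0.281 in NUL (n = 4; log2 fold change 3.02 ± 0.53, edgeR adjusted p = 0.000668). Igfbp3, the binding protein that forms the serum complex with IGF1 and the acid-labile subunit, fell from 28.7 ± 5.82 to 15.9 ± 5.06 CPM (−0.85 ± 0.23, 0.0165), and Igfbp7 fell by 0.52 ± 0.10 (0.00125). Igfbp4, a soluble IGF binding protein, went with Igfals: it rose from LAC to ID2 by 0.51 ± 0.16 (0.0308) and fell from ID4 to ID6 by 0.60 ± 0.13 (0.00372).

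Liver genes with a female or male bias set by the pattern of growth hormone release were counted as a further readout of the pathway. Of 16 female-biased genes, 8 were called jointly (27% of all genes were). In LAC against NUL 4 were higher and 1 lower (11.2% of all genes were called), in ID4 against NUL 5 were higher and none lower (4.25%), and from ID4 to ID6 5 fell and none rose (8.53%). Cyp3a41a, a cytochrome P450, was at 373 ± 108 CPM in NUL (n = 4), 1238 ± 395 in LAC (n = 3) and 1224 ± 86.4 in ID4 (n = 4), with log2 fold changes of 1.73 ± 0.26 and 1.71 ± 0.25 (edgeR adjusted p = 0.000173 and 0.000299). Cyp2b13 was lower in LAC than in NUL (−1.46 ± 0.27, 0.00129) and rose in ID2 (1.11 ± 0.28 against LAC, 0.0107). Cyp2a4 was the 1 gene of these lists called in REG against NUL (1139 ± 223 against 587 ± 138 CPM, n = 4 each; 0.96 ± 0.16, 0.00808). Counts of Cyp3a41a and Cyp2a4 were fractional in 26 and 27 libraries, since near-identical copies share their reads, so the division between copies is uncertain.

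Of 18 male-biased genes 12 were tested and 5 called jointly, beside the same 27% of all genes. In LAC against NUL 3 were higher and none lower (11.2% of all genes were called), and from LAC to ID2 3 fell and none rose (16.1%). Gstp1, a glutathione transferase, was 239.1 ± 9.06 CPM in NUL, 418 ± 19.9 in LAC and 173 ± 12.2 in ID2 (log2 fold changes 0.81 ± 0.13 and −1.27 ± 0.14, edgeR adjusted p = 0.000172 and 1.83e-06), with fractional counts in all 27 libraries. Cyp2d9 fell from 82.8 ± 1.62 CPM in LAC to 47.8 ± 10.9 in ID2 (−0.79 ± 0.19, 0.00684). The median log2 fold change in LAC against NUL was 0.06 over the female list and −0.03 over the male list, beside −0.01 over all genes. In the same order, the medians were 0.55, −0.37 and −0.02 in ID2 against NUL, and 0.63, −0.11 and −0.02 in ID4 against NUL. They were 0.23, −0.52 and 0.02 from LAC to ID2, and −0.44, −0.09 and 0.01 from ID4 to ID6. Of 10 other cytokine receptors tested, 6 were called jointly. In LAC, Il6ra, the interleukin 6 receptor, was higher by 0.63 ± 0.20 (0.0399) and Osmr, the oncostatin M receptor, lower by 0.53 ± 0.17 (0.0413).

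The genes most like each of 6 members over the 27 libraries were taken among 10992 genes by the Pearson r of log2 CPM. Brackets give r and then the Spearman rho, as descriptions over libraries that share stages and scaling. For Cish they were Foxq1 (0.852, 0.845), Phlda1 (0.838, 0.860) and Foxa2 (0.817, 0.822). For Socs2 they were Slc25a30 (0.703, 0.579), Mad2l1bp (0.698, 0.654) and Arid5b (0.692, 0.499). For Bcl6 they were Cd55 (0.719, 0.697), Rmdn2 (0.702, 0.645) and Pms1 (0.694, 0.686). Prlr was most like Herc6 (0.794, 0.797), Gbp11 (0.791, 0.781) and Lrrc8d (0.785, 0.777). Igf1 was most like Gbp11 (0.861, 0.878), Trim12c (0.839, 0.819) and Nras (0.815, 0.841). Ghr was most like Anxa4 (0.795, 0.745), Tmem173 (0.793, 0.599) and Lsp1 (0.785, 0.628).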

How the data were processed

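Whole livers of 27 mice gave 1 library each, and groups were taken from the titles. Reads were aligned with STAR 2.6.1a and quantified with RSEM 1.3.1 on GRCm38 (mm10), per the submitters' processing notes; the annotation and the use of strand are not given in the sources used here. Deposited per library are the expected count per gene (the authors' estimate of its reads, not normalized), TPM (the authors' length-scaled value) and the mean and effective transcript length, per the file headers. Symbols and positions are from GENCODE M21 (51633 of 51826 identifiers matched). The deposited length of Igfals differs from the one in that release.

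Rounded expected counts were fitted with edgeR 4.0.16 (R 4.3.3): filterByExpr by stage (16428 genes, at least 99.9783% of counts), TMM, 1 quasi-likelihood fit of all 27 libraries with 7 groups, 11 comparisons and a joint test, Benjamini-Hochberg within each, two-sided. The common dispersion was 0.0360. No label says more of the separateness of replicates than that each is an animal, and p-values measure the spread between these animals. Transcript length was tested with limma 3.58.1 on log2 values (12190 genes). DESeq2 1.42.0, other scalings, filters, covariates (number of runs, title number under 200, clock genes) and leaving out each library were alternatives. The fit was tested on counts simulated with that 1 dispersion for every gene, so the test does not cover genes as variable as Cish, Bcl6 and Socs2. All 10 genes are named. From other lists, up to 3 called genes per comparison with the largest change and a mean log2 CPM of at least 0 were eligible. Only some of these are named, and not always those with the largest change. Members and lists were chosen with earlier results of these data known.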

Additional observations from a re-analysis of the deposited data

Results flagged for a closer look

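In 40 gene and stage groups of 4 to 10 animals, 3 had an animal far from the others by Dixon's criterion at 95%, which chance gives in about 1 in 20 groups. Cish was 47.9 CPM in animal ID6_216, where the next was 14.8. Socs2 was 100.1 CPM in NUL_226, where the next was 29.0. Stat5a was 14.8 CPM in ID4_211, where the next was 17.5, and the gap was 0.830 of the range with a critical value of 0.829. Values of Cish and Socs2 without NUL_226, and of Cish without ID6_216, are given above.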

How the results depend on the processing

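No paired analysis was possible because no title number is shared between groups. With 1 animal left out in turn, the number of the 10 genes called ranged from 1 to 3 in LAC against NUL (2 with all animals), 0 to 2 in ID2 against NUL (2), 0 to 3 in ID4 against NUL (3), 2 to 5 in ID2 against LAC (5), 1 to 2 in ID6 against ID4 (2) and 6 to 7 in the joint test (6), and stayed at 0 in the other 6 comparisons. At an adjusted p under 0.01, 1 gene was called in LAC against NUL, 0 in ID2 against NUL, 0 in ID4 against NUL, 3 in ID2 against LAC and 1 in ID6 against ID4. With a term for title number in the fit the counts were 0 in ID2 against NUL, 0 in ID4 against NUL, 3 in ID2 against LAC and 1 in ID6 against ID4. With the clock score as a covariate they were 0 in ID2 against NUL and 2 in ID2 against LAC. On log2(TPM + 1) and on log2(TPM + 0.1), 1 gene was called in each of ID2 against NUL, ID4 against NUL and ID6 against ID4, and with an effective length offset 1 was called in ID2 against NUL and in ID6 against ID4. The cause of these losses was not tested. The Prlr to Ghr ratio of ID2 against LAC (log2 −0.11) lay between −0.28 and 0.01 with 1 animal left out, and it turned positive, at 0.0084, without ID2_224; for LAC against NUL it stayed between 0.36 and 0.44. Of 2680 values for single genes under alternatives, 2588 kept their side of the threshold, 82 lost a call and 10 gained one. None of those called in either fit changed sign, while some that were called in neither did. The "10 counts in at least 3 libraries" filter kept 16525 genes and so was no stricter than the filter used. Groups of 3 to 6 animals limit what can be seen for Cish, Socs2 and Bcl6.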
